A study of Mus musculus with 25 samples.

Results

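The adipose macrophages compared here lacked the surface protein Tim4 and were split by CD11c, the integrin alpha chain encoded by Itgax. The CD11c- cells were gated as Tim4-, CD11c- and MHCII high (pop3), and the CD11c+ cells as Tim4-, CD11c+ and MHCII+ (pop4). They were chosen by the sort label, and make up 8 of the 25 libraries of the study, 4 of each population. All cells came from white adipose tissue (eWAT in the sample titles) of C57BL6 mice on either of 2 diets, with 10% fat in the control diet (CD) and 45% fat in the high fat diet (HFD). Each population had 2 libraries per diet. The CD libraries carry the replicate numbers 7 and 8, with CD-CD7 and CD-CD8 in their titles, and the HFD libraries the numbers 2 and 3. What the doubled CD stands for is not given in the titles. In these 8 libraries diet and this series of titles cannot be told apart. Each library was made from amplified cDNA of 200 sorted cells, after collagenase digestion in the presence of flavopiridol, which blocks transcription. No genetic change or further treatment is given in the labels. The labels do not say how long the diets lasted, the number of animals per library or whether libraries with the same number share an animal, so p-values measure the spread between these libraries, which may be technical.

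Macrophages of adipose tissue are a mixture of long-lived resident cells and cells that derive from circulating monocytes. Resident adipose macrophages are known for scavenger and lectin receptors such as Lyve1, Cd163, Mrc1 and the Cd209 family, for the transcription factor Maf, and for growth factors such as Igf1. CD11c marks macrophages and dendritic cells that are known to gather in the fat of obese animals, often with genes of lipid handling and matrix breakdown such as Lpl, Cd9 and Mmp12. The question was how the RNA of CD11c+ cells differed from that of CD11c- cells within the Tim4- compartment, and whether the difference was alike on both diets.

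The stretches before the start sites of 4 marker or lectin genes are shown because all 4 hold the same short motif. They are Itgax and Mmp12, whose levels were high in the CD11c+ libraries, and Cd209f and Cd209g, whose levels were high in the CD11c- libraries. The sequences are RefSeq sequence of build GRCm38.p6, given 5′ to 3′ on the strand of the gene, from 250 bases before the RefSeq start up to that start or to the nearest exon of a protein-coding GENCODE M21 transcript. Capitals mark the AP-1 motif TGANTCA, searched on both strands.
Itgax, chr7:128129300-128129546, plus strand, 247 bases: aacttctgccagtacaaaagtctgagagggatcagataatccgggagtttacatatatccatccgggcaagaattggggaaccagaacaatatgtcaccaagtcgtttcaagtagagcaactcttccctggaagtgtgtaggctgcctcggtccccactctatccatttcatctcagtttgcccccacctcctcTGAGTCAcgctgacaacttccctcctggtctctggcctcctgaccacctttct
Mmp12, chr9:7347124-7347373, plus strand, 250 bases: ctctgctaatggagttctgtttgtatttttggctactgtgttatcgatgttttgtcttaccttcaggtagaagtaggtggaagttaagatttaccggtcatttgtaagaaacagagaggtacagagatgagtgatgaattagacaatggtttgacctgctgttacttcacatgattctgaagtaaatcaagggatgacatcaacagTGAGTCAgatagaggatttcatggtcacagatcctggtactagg
Cd209f, chr8:4105836-4106014, minus strand, 179 bases: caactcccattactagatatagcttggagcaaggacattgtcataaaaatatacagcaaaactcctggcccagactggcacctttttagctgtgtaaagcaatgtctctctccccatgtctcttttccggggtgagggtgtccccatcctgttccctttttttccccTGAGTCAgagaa
Cd209g, chr8:4134486-4134651, plus strand, 166 bases: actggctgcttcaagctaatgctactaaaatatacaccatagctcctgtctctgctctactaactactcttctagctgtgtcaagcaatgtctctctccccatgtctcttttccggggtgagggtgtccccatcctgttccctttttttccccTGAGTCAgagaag
The motif begins 56 bases before the RefSeq start of Itgax, 44 before that of Mmp12, 83 before that of Cd209f and 97 before that of Cd209g. The windows of Mmp12 and Cd209g overlap the annotated bodies of their own genes, but no exon of a protein-coding transcript. The windows of Cd209f and Cd209g share an unbroken run of 83 bases that includes the motif. At their best alignment the windows were identical at 118 of 165 compared bases (71.5%), and the transcripts were not compared. Reads of these related genes may have been divided between them, since how reads with several matches were treated is not given in the sources used here. Over the 250 bases before the start, the motif was found in 6.35% of 17564 genes with a matched start, in 4.12% of 9123 tested genes, in 8 of 102 genes called higher in CD11c+ cells (7.84%) and in 15 of 166 called lower (9.04%). The motif TGCTGAC, bound by Maf proteins, was found in 3.05% of the tested genes, 4.9% of the higher and 1.2% of the lower. The motif GAGGAAG, a core of Spi1 sites, was found in 11.2% of the tested genes, 19.6% of the higher and 13.3% of the lower. Both were searched on both strands. The end of TGCTGAC and the start of TGANTCA can share letters, so a single stretch can match both, and a match describes the letters only.

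Total counts ranged from 5.07 to 8.52 M in the CD11c- libraries and from 7.06 to 8.24 M in the CD11c+ libraries, and 3 counts corresponded to 0.351 to 0.644 CPM (counts scaled to a common library size after TMM). Log2 CPM correlated across genes at 0.709 to 0.765 between CD11c- libraries, 0.812 to 0.864 between CD11c+ libraries and 0.659 to 0.753 between populations (Pearson r, over genes, which are not independent replicates). A sum of receptor genes, taken here as a measure of background, also separated the populations. Whether these cells express any of the receptors was not tested. The summed level of 1463 olfactory and vomeronasal receptor genes was 459, 749, 351 and 199 CPM in the CD11c- libraries. In the CD11c+ libraries it was 194, 114, 81.4 and 78.6 CPM (here and below in the order CD replicates 7 and 8, HFD replicates 2 and 3). The number of genes with at least 1 count was 19647 to 21487 in CD11c- and 14895 to 19585 in CD11c+ libraries. Neither range overlapped, so this background and the population cannot be told apart in these 8 libraries. Per receptor gene the mean was 0.3 CPM in CD11c- and 0.08 CPM in CD11c+ libraries, and the highest level of a single receptor gene in any library was 56.1 CPM. Of the receptor genes 3 were abundant enough to be tested, and 0 were called, which is too few tested genes to tell whether such background gives calls.

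**Figure D1:**
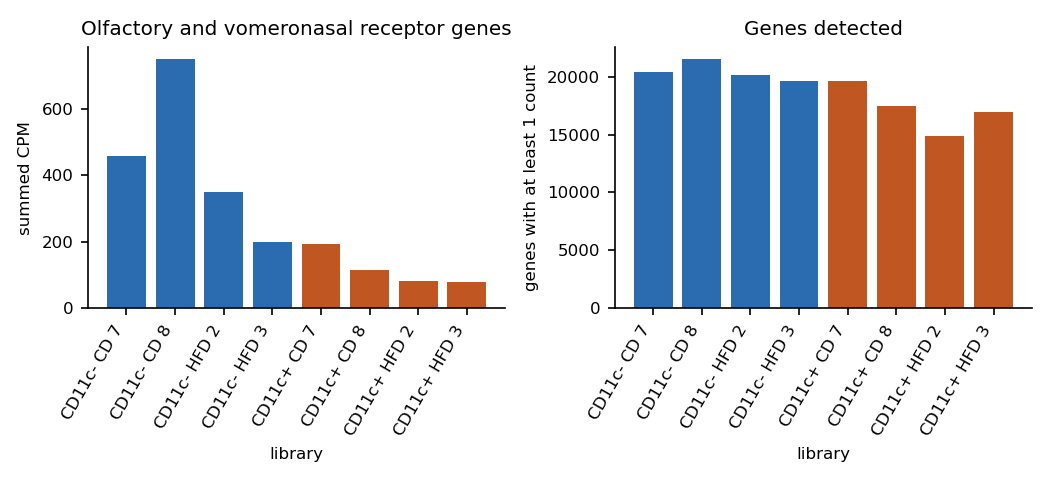
Summed CPM of olfactory and vomeronasal receptor genes (left) and number of genes with at least 1 count (right) in each of the 8 libraries, 1 bar a library, CD11c- in blue and CD11c+ in orange. All 4 CD11c- libraries lie above all 4 CD11c+ libraries on both axes, with the smallest gap between CD11c- HFD replicate 3 (199 CPM) and CD11c+ CD replicate 7 (194 CPM).

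The gate was visible in the RNA. Itgax (chr7:128129568-128150657, mm10) stood at 12.2, 1.29, 46.8 and 25.3 CPM in the CD11c- libraries and at 191, 179, 173 and 189 CPM in the CD11c+ libraries, a log2 difference of 3.52 (SE 0.77, adjusted p = 0.0481, edgeR quasi-likelihood test with Benjamini-Hochberg adjustment). The CD11c+ libraries were all alike, whereas the CD11c- libraries spread, with both HFD libraries above both CD libraries. The call was kept without CD11c- CD replicate 8 (adjusted p = 0.0274) and lost without any other library (up to 0.133). In bulk RNA of sorted cells, fewer cells that carry a transcript and less of it per cell cannot be told apart. Timd4, which encodes Tim4, was too low to be tested, and 13.5 CPM in CD11c- CD replicate 8 and 10.5 CPM in CD11c+ CD replicate 8 were its highest levels. In the Tim4+ populations its mean was 438.6 CPM (MHCII low) and 312.7 CPM (MHCII high). The MHC class II genes did not pass the test in this comparison of MHCII high with MHCII+ cells. H2-Aa was 1557 ± 260 CPM in CD11c- and 1385 ± 187 in CD11c+ libraries (SD, n = 4 each), H2-Ab1 966 ± 71.9 and 1064 ± 43.4, H2-Eb1 882 ± 68.1 and 834 ± 24.3, and the invariant chain gene Cd74 1293 ± 92.2 and 1411 ± 124. Both populations carried macrophage genes. The gene Adgre1, which encodes the macrophage surface antigen of the adhesion receptor family, ranged from 308 to 620 CPM in CD11c- and 343 to 366 CPM in CD11c+ libraries (log2 difference -0.40, adjusted p = 0.281), and Cd68, a lysosomal protein, from 246 to 696 and 409 to 753 CPM (0.14, adjusted p = 0.845). Of 13 tested pan-macrophage genes, 2 were lower in CD11c+ cells, Csf1r, the receptor for the macrophage growth factor CSF1 (-0.88, SE 0.15, adjusted p = 0.017), and Aif1, an actin-binding protein (-1.03, SE 0.16, adjusted p = 0.0125).

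With diet as a covariate, 355 of 11775 tested genes differed between the populations (3.01%), 132 higher in CD11c+ cells (1.12%) and 223 lower (1.89%). The higher genes had a median absolute log2 difference of 3.50 and the lower genes 2.21, against a median log2 difference of -0.003 over all tested genes. All 355 had the same sign within CD and within HFD. Of the higher genes 130, and of the lower genes 215, had 4 libraries of a population beyond all 4 of the other, and among all tested genes 6.58% were higher and 6.93% lower in that sense. When the receptor background was added as a covariate, 0 genes passed the edgeR test (744 at an unadjusted p under 0.05), while 353 of the 355 kept their sign and the median ratio of their log2 differences to those without the covariate was 1.02. Of 87 called genes described here, 45 passed the edgeR test whichever library was left out. The other 42 each missed it without at least 1 library, and these were Abca1, Aif1, Anxa2, Bhlhe40, Bmp2, Bub1, C1qb, C1qc, Ccl8, Ccnb2, Cd2, Cd83, Cd9, Cmklr1, Csf1r, Ctsb, Depdc7, F10, Fcrls, Gja1, Grn, H2-DMb2, H2-Oa, Hif1a, Hpgd, Il18rap, Il7r, Irf8, Itgax, Itgb2, Kitl, Klre1, Lgals3, Lpl, Ltb4r1, Lyve1, Nrp1, Oas2, S1pr1, Slc11a2, Slc48a1 and Tuba4a. Of these, Fcrls, Itgb2, Klre1 and Slc11a2 missed it whichever library was left out. Anxa2, Cmklr1, Depdc7, F10, Grn, H2-Oa, Itgax, Oas2 and Tuba4a passed in only 1 of the 8 such fits. Without the filter on low counts the split turned to 199 higher and 163 lower, with the median over all genes shifted by -0.442. In a fit with the 16 adipose libraries it was 182 and 616. Leaving out any 1 library left 34 to 93 higher and 92 to 161 lower genes, lowest without CD11c+ HFD replicate 2, and all 355 genes kept their sign. The higher count moved by over 1.5 times without any library other than CD11c- HFD replicate 2, and the lower count without any other than CD11c- CD replicate 8 and CD11c- HFD replicate 2.

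**Figure D2:**
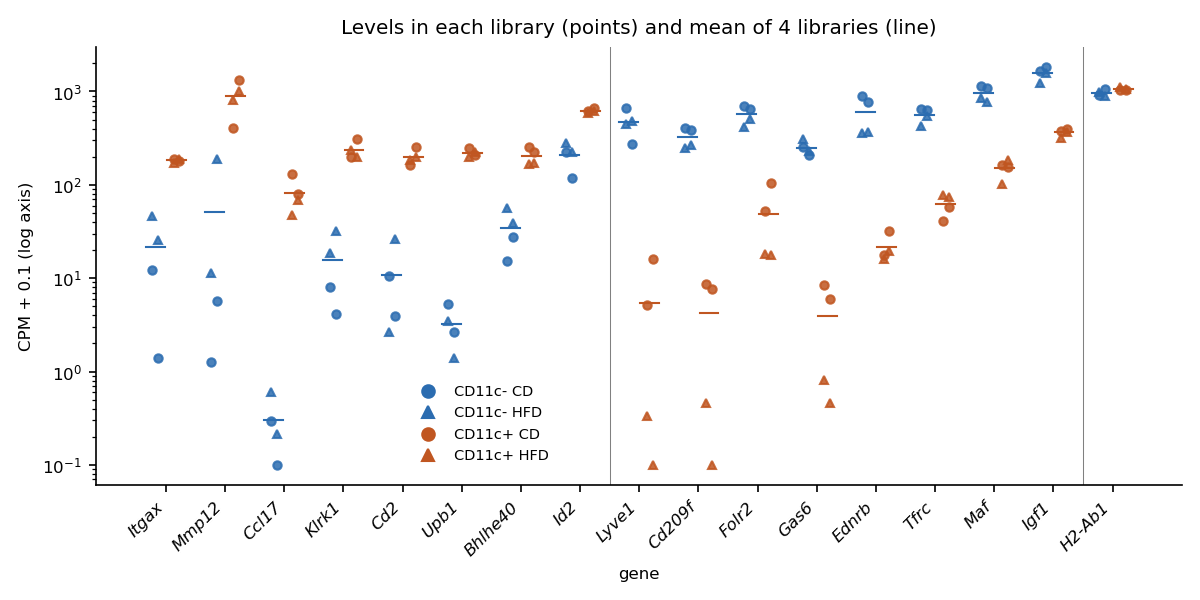
CPM + 0.1 on a log axis of 17 genes in each of the 8 libraries (circles CD, triangles HFD, CD11c- in blue and CD11c+ in orange), with the mean of 4 libraries as a line. Genes left of the first grey line had higher levels in CD11c+ libraries (Mmp12 did not pass the test), those between the lines were lower in CD11c+ cells, and H2-Ab1 overlapped. Lyve1, Cd209f and Gas6 lie under 1 CPM in both CD11c+ HFD libraries.

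Genes of resident macrophages were lower in CD11c+ cells. Of 31 tested genes of that list 24 passed the test as lower and 0 as higher, with a list median of -2.10 (all tested genes -0.003) and 29 of 31 values below 0. The list was chosen with earlier results of these libraries known, so the count is a description. The same holds for the other lists, whose counts stand beside 3.01% called over all tested genes (1.12% higher, 1.89% lower). Igf1, a growth factor made by resident macrophages, was 1672, 1833, 1229 and 1583 CPM in CD11c- and 377, 397, 319 and 371 CPM in CD11c+ libraries, without overlap (-2.10, SE 0.12, adjusted p = 0.000201). Ednrb, the endothelin B receptor, was 904, 771, 355 and 368 CPM against 17.8, 32.3, 16 and 19.5 CPM (-4.71, SE 0.27, adjusted p = 0.000201). Its CD11c- level was higher on CD than on HFD in all 4 libraries, and the CD11c+ libraries were low on either diet. The number called in this list was 20 to 23 when 1 library at a time was left out.

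Endocytic receptors of the list were among the genes close to absent from some CD11c+ libraries. Lyve1, a hyaluronan receptor, was 668, 273, 443 and 483 CPM in CD11c- libraries and 5.07, 15.8, 0.237 and 0 CPM in CD11c+ libraries (-7.40, SE 1.18, adjusted p = 0.0142). Cd209f, a C-type lectin gene, was 403, 390, 250 and 270 CPM against 8.55, 7.55, 0.355 and 0 CPM (-7.21, SE 0.93, adjusted p = 0.00565). For both genes the CD11c+ libraries on HFD held at most 3 counts, so the fitted size depends on the prior count there. Folr2, a folate receptor, stood at 699, 647, 420 and 505 CPM against 52.6, 105, 18 and 17.7 CPM (-3.88, SE 0.39, adjusted p = 0.00206). Stab1, a scavenger receptor, was 315, 296, 220 and 264 CPM against 34.3, 13.1, 4.73 and 2.81 CPM (-4.80, SE 0.60, adjusted p = 0.00525). Gas6, the bridging ligand that lets TAM receptors bind dying cells, was 252, 210, 312 and 228 CPM against 8.28, 5.83, 0.71 and 0.366 CPM (-6.67, SE 0.85, adjusted p = 0.00554).

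Other members were lower but still abundant in CD11c+ cells. The mannose receptor gene Mrc1 was 1565 ± 167 CPM in CD11c- and 709 ± 62.5 CPM in CD11c+ libraries (-1.14, SE 0.11, adjusted p = 0.00206). Selenop, a secreted selenium carrier, was 2382 ± 633 and 694 ± 230 CPM (-1.77, SE 0.15, adjusted p = 0.000927), and the clotting factor gene F13a1 1118 ± 47.4 and 356 ± 67 CPM (-1.65, SE 0.15, adjusted p = 0.00127). Cd163, the haemoglobin scavenger receptor, ranged from 306 to 514 CPM in CD11c- and 108 to 157 CPM in CD11c+ libraries (-1.56, adjusted p = 0.0105). The list was not lost as a block: the lectin gene Cd209a, a neighbour of Cd209f in the same family, was 308 to 608 CPM in CD11c- and 415 to 616 CPM in CD11c+ libraries (0.21, SE 0.14, adjusted p = 0.471), and the transcription factor gene Klf4 was 100 to 149 and 104 to 151 CPM (0.17, adjusted p = 0.754). The iron exporter gene Slc40a1, the ficolin gene Fcna, Cd209b and Colec12 had negative values that missed the threshold (adjusted p = 0.0902, 0.058, 0.0626 and 0.0519). Slc40a1 passed without CD11c+ CD replicate 8 (adjusted p = 0.0244), and Fcna without CD11c+ HFD replicate 3 (adjusted p = 0.0126). Without any other library both missed the threshold (up to 0.203 for Slc40a1 and 0.151 for Fcna).

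Transcription factors moved in both directions. Of 31 tested macrophage transcription factor genes 3 were higher and 4 lower in CD11c+ cells (22.58% called), with a list median of 0.15. Maf was 1132, 1087, 848 and 766 CPM in CD11c- and 163, 155, 101 and 184 CPM in CD11c+ libraries (-2.65, SE 0.19, adjusted p = 0.000513). This factor, known for restraining macrophage self-renewal, showed no overlap between populations. Mef2c (-1.69, SE 0.17, adjusted p = 0.00186) and Irf8, a factor of monocyte and dendritic cell development (-2.18, SE 0.40, adjusted p = 0.024), were also lower. In the other direction, Id2, an inhibitor of basic helix-loop-helix factors, was 222, 117, 279 and 223 CPM in CD11c- and 614, 662, 583 and 622 CPM in CD11c+ libraries (1.59, SE 0.23, adjusted p = 0.0103). Bhlhe40 was 15.3, 27.7, 56.8 and 38.7 against 257, 223, 167 and 173 CPM (2.65, SE 0.42, adjusted p = 0.0146), and Hif1a, the oxygen-regulated factor, 281 ± 47.3 against 560 ± 73.3 CPM (0.99, SE 0.17, adjusted p = 0.0188). Spi1, the lineage factor of myeloid cells, had a value of 0.99 that missed the threshold (SE 0.23, adjusted p = 0.0601).

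Complement genes were lower in CD11c+ cells in 7 of 16 tested (43.75%, against 1.89% of all tested genes), and 0 were higher (list median -1.16). The C1q chains, which start the classical pathway, were all lower: C1qa 494 ± 30.6 against 186 ± 36.2 CPM (-1.41, SE 0.17, adjusted p = 0.00432), C1qb 1051 ± 153 against 632 ± 128 CPM (-0.73, adjusted p = 0.0266) and C1qc 939 ± 144 against 449 ± 117 CPM (-1.05, adjusted p = 0.0216). C4b, a component of the classical pathway, was 134, 70, 110 and 105 CPM in CD11c- and 3.47, 0.265, 0.355 and 2.56 CPM in CD11c+ libraries (-5.97, adjusted p = 0.0125). The anaphylatoxin receptors C5ar1 (-1.56, SE 0.18, adjusted p = 0.00386) and C3ar1 (-1.27, SE 0.18, adjusted p = 0.0103) were lower too. The integrin chain Itgam, which forms a complement receptor with Itgb2, was 345 to 551 and 356 to 461 CPM (adjusted p = 0.997), whereas Itgb2 itself, the chain shared with CD11c, was higher (0.87, SE 0.19, adjusted p = 0.0449).

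Iron, sterol export and growth factor genes followed. Of 17 tested genes of iron and heme handling 4 were lower and 1 higher (29.41% called). Tfrc, the transferrin receptor, was 649, 628, 424 and 553 CPM in CD11c- and 41.3, 58.2, 78.0 and 73.7 CPM in CD11c+ libraries (-3.18, SE 0.25, adjusted p = 0.000785). The ferroxidase gene Cp was 92.8 to 238 against 10.1 to 12.6 CPM (-3.69, SE 0.40, adjusted p = 0.00303), and the iron transporter gene Slc11a2 was lower as well (-2.06, adjusted p = 0.0486). Slc48a1, which carries heme out of the lysosome, was higher, 129 ± 47.3 against 323 ± 25.7 CPM (1.32, SE 0.28, adjusted p = 0.039). Among 14 tested cholesterol efflux genes, Abca1, the pump that loads cholesterol onto apolipoprotein, was lower (-2.36, SE 0.37, adjusted p = 0.0138), as was Apoe, 765 ± 60.8 against 208 ± 71.7 CPM (-1.89, SE 0.25, adjusted p = 0.00718). Of 15 tested growth factor genes 4 were lower (26.67%) and 0 higher. These were Igf1, the progranulin gene Grn (-0.87, adjusted p = 0.0274), the stem cell factor gene Kitl, 390 ± 101 against 174 ± 17.5 CPM (-1.14, adjusted p = 0.0248), and Bmp2. Bmp2, a morphogen of the TGF-beta family, was 102, 95.8, 27.6 and 63.1 CPM in CD11c- and 0, 1.59, 0.118 and 0.122 CPM in CD11c+ libraries (-7.51, SE 1.12, adjusted p = 0.0112). Pdgfc, a platelet-derived growth factor, was 57.3 to 208 and 0.122 to 27.4 CPM, and its value of -3.81 missed the threshold (SE 1.07, adjusted p = 0.104).

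Among 18 tested chemokine genes 1 was higher and 3 were lower (22.22% called). Ccl17, a ligand of CCR4, was close to absent from CD11c- libraries, with 0.193, 0, 0.507 and 0.117 CPM (6 counts in all), and stood at 132, 79.8, 47.8 and 68.8 CPM in CD11c+ libraries (8.38, SE 0.91, adjusted p = 0.00318). Pf4 (-1.81, SE 0.12, adjusted p = 0.00037), Ccl8 and Ccl12 were lower. Ccl8, a CC chemokine, was 498, 616, 325 and 324 CPM against 0.668, 36.8, 3.9 and 0.244 CPM (-5.97, adjusted p = 0.0305), and Ccl12 was 51.7 to 459 against 0 to 4.24 CPM (-6.88, adjusted p = 0.015). Of the receptors for attractants, the leukotriene B4 receptor gene Ltb4r1 was 1.35, 0.429, 16.9 and 3.97 CPM in CD11c- and 37.4, 223, 187 and 174 CPM in CD11c+ libraries (5.43, SE 0.98, adjusted p = 0.0236). The chemerin receptor gene Cmklr1 (-2.49, adjusted p = 0.0329) and the sphingosine phosphate receptor gene S1pr1 (-3.69, adjusted p = 0.0292) were lower. Ccr2, the receptor that brings monocytes out of the marrow, was 1008 to 1605 and 1307 to 1745 CPM (0.25, SE 0.16, adjusted p = 0.453).

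**Figure D3:**
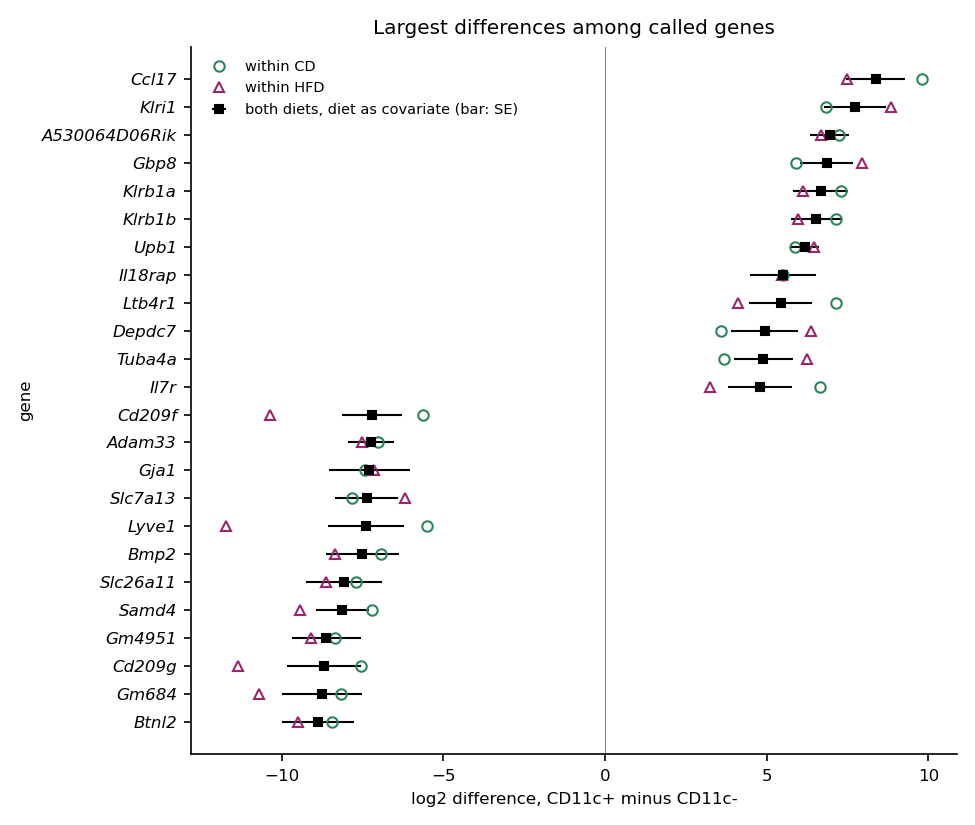
Log2 difference (CD11c+ minus CD11c-) of the 12 higher and 12 lower called genes with the largest values among those whose libraries did not overlap and whose mean reached 50 CPM in the higher population. Squares with SE bars are the fit with diet as covariate, circles the difference within CD and triangles within HFD, which all lie on the same side of 0.

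The most extreme genes on the CD11c+ side included a cluster of lectin-like receptor genes better known from natural killer cells. Klri1 was 0.387, 0.644, 0 and 0.234 CPM in the CD11c- libraries and 40.3 to 80.7 CPM in CD11c+ libraries (7.74, SE 0.96, adjusted p = 0.00519). Klrb1a was 0.967, 0.644, 0.127 and 2.81 CPM against 117, 144, 86.3 and 123 CPM (6.67, SE 0.85, adjusted p = 0.00559), and Klrb1b 0.468 to 0.644 against 15.9 to 128 CPM (6.54, SE 0.79, adjusted p = 0.00469). Klrb1a and Klrb1b are alike in sequence, so reads may be divided between them. Klrk1, the activating receptor NKG2D, was 7.93, 4.08, 18.6 and 32 CPM against 196, 307, 234 and 201 CPM (4.20, SE 0.57, adjusted p = 0.00765), and Klre1 was 0.127 to 0.644 against 1.59 to 22.8 CPM (4.46, adjusted p = 0.035). Klrd1, the CD94 gene, had values of 0 to 20.2 and 56.1 to 99.8 CPM that missed the threshold (3.30, SE 1.34, adjusted p = 0.236).

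The other genes on that side were of mixed function. Upb1, an enzyme of pyrimidine breakdown, was 5.22, 2.58, 3.42 and 1.29 CPM in CD11c- and 251, 210, 198 and 222 CPM in CD11c+ libraries (6.17, SE 0.45, adjusted p = 0.000513). The interferon-inducible GTPase gene Gbp8 (6.85, SE 0.83, adjusted p = 0.00469), the uncharacterised A530064D06Rik (6.95, SE 0.60, adjusted p = 0.00112), the interleukin-18 receptor chain gene Il18rap (5.49, adjusted p = 0.0257), Depdc7 (4.94, adjusted p = 0.042) and the tubulin gene Tuba4a (4.90, adjusted p = 0.026) were at most 9.47 CPM in any CD11c- library. Il7r, the interleukin-7 receptor, was 1.16, 1.07, 3.68 and 24.6 CPM against 92.5, 137, 71.3 and 199 CPM (4.79, SE 0.99, adjusted p = 0.0377). Cd2, an adhesion receptor of lymphocytes and some dendritic cells, was 10.4, 3.87, 2.53 and 26.1 CPM against 161, 253, 183 and 201 CPM (4.28, SE 0.73, adjusted p = 0.0188). Fn1, fibronectin, rose from 476 ± 51.7 to 1027 ± 81.5 CPM (1.11, SE 0.12, adjusted p = 0.00285).

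On the CD11c- side the extreme genes besides Lyve1, Cd209f and Bmp2 were at or under 2.67 CPM in every CD11c+ library. Btnl2, a butyrophilin-like inhibitor of T cells, was 116, 36.1, 50.6 and 62.7 CPM in CD11c- and 0.401, 0, 0 and 0.122 CPM in CD11c+ libraries (-8.89, SE 1.11, adjusted p = 0.00525), with 1704 against 4 counts in all. Cd209g was 172 to 339 CPM against 0 to 2.67 CPM (-8.69, SE 1.14, adjusted p = 0.00608). The RNA-binding protein gene Samd4 (-8.13, SE 0.83, adjusted p = 0.00223), the metalloproteinase gene Adam33 (-7.25, SE 0.70, adjusted p = 0.00177), the anion transporter gene Slc26a11 (-8.07, adjusted p = 0.0105), the connexin gene Gja1 (-7.29, adjusted p = 0.0195), Gm684 (-8.77, adjusted p = 0.00888) and Gm4951 (-8.62, adjusted p = 0.00503) had the same pattern. Slc7a13, an amino acid transporter gene, was 247 and 341 CPM in the CD libraries and 18.1 and 1.87 CPM in the HFD libraries of CD11c- cells, against 0 to 1.6 CPM in CD11c+ cells (-7.38, SE 0.97, adjusted p = 0.00642). Since these CD11c+ levels lie near the floor of 3 counts, the fitted values depend on the prior count.

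Genes of lipid-associated macrophages moved in both directions. Of 26 tested, 4 were higher and 2 lower (23.08% called, list median 0.44, with 17 values above 0). Lipoprotein lipase, Lpl, was 893 ± 143 against 1287 ± 55.7 CPM (0.54, SE 0.10, adjusted p = 0.0269), the tetraspanin gene Cd9 95.8 ± 27.3 against 287 ± 53.4 CPM (1.58, SE 0.26, adjusted p = 0.0158), galectin-3, Lgals3, 406 ± 47.5 against 674 ± 74.8 CPM (0.73, adjusted p = 0.0274) and Anxa2 356 ± 40.7 against 567 ± 46.5 CPM (0.67, adjusted p = 0.0321). Apoe and the cathepsin gene Ctsb (-0.66, adjusted p = 0.0228) were lower. Trem2, the lipid receptor that defines this programme, was 45.4 to 113 and 54.3 to 152 CPM (0.18, SE 0.44, adjusted p = 0.874), and the fatty acid transporter gene Cd36 was 1158 to 2510 and 1066 to 1789 CPM (-0.49, SE 0.18, adjusted p = 0.192). The osteopontin gene Spp1 was 0.193, 0.429, 14.8 and 0 CPM in CD11c- and 461, 174, 22.2 and 50.8 CPM in CD11c+ libraries (5.37, SE 2.08, adjusted p = 0.218). Without CD11c- HFD replicate 2 its adjusted p was 0.00454, and without any other library it missed the threshold (up to 0.373).

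Mmp12, macrophage elastase, was 1.16, 5.58, 11.3 and 188 CPM in CD11c- libraries and 402, 1312, 817 and 1005 CPM in CD11c+ libraries (5.32, SE 1.36, adjusted p = 0.0798). The populations did not overlap, but CD11c- HFD replicate 3 stood far above the other 3 CD11c- libraries, and the gene missed the threshold. Without that library the adjusted p was 0.00811, and without any other library Mmp12 missed the threshold (up to 0.189). Of 14 tested matrix protease and inhibitor genes 2 were lower (14.29%) and 0 higher. Mmp9, gelatinase B, was 276, 164, 34.2 and 97.6 CPM in CD11c- and 10.5, 3.97, 0.355 and 0.122 CPM in CD11c+ libraries (-6.13, SE 0.86, adjusted p = 0.0087), and the inhibitor gene Timp2 was 694 ± 22.3 against 368 ± 34.7 CPM (-0.91, SE 0.12, adjusted p = 0.00547).

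Of 14 tested genes of the MHC class II pathway 2 were higher and 1 lower (21.43% called, against 3.01% of all tested genes). The peptide-loading gene H2-DMb2 was 2.71, 4.08, 5.96 and 2.57 CPM in CD11c- and 30.2, 80.8, 55.7 and 72.8 CPM in CD11c+ libraries (3.97, SE 0.63, adjusted p = 0.014). H2-Oa, part of the molecule that restrains peptide loading, was 0.215 to 0.967 against 5.87 to 64.7 CPM (5.84, SE 1.07, adjusted p = 0.0247). The endosomal protease gene Lgmn was lower (-1.05, SE 0.15, adjusted p = 0.00825). Of 14 tested costimulation genes, the activation marker Cd83 was lower (-1.26, SE 0.22, adjusted p = 0.021), and Cd86 had a value of 0.30 (adjusted p = 0.649).

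Markers of other cell types moved with some of these genes, and their part in the results was not tested. The summed level of 20 dendritic cell genes was 1120 to 1667 CPM in CD11c- and 1972 to 2194 CPM in CD11c+ libraries, without overlap, as was so for several other lists in either direction. Of its 17 tested genes, 0 passed the edgeR test (list median 0.61), against 3.01% of all tested genes. Its defining genes were low or uneven: Zbtb46 was 0 to 9.28 and 1.07 to 13.1 CPM, Flt3 0.634 to 2.32 and 0.732 to 95.2 CPM, and Clec9a 0.127 to 2.15 and 0.134 to 18.4 CPM. Cd24a was 3.01 to 149 and 458 to 501 CPM (3.10, SE 0.93, adjusted p = 0.124). The summed level of 11 T cell genes was 16.1 to 60.6 CPM in CD11c- and 258 to 416 CPM in CD11c+ libraries, carried by Il7r and Cd2. The T cell receptor complex gene Cd3e was at most 0.967 CPM in any library. The other tested genes of that list, Cd3d (3.66, adjusted p = 0.14) and Lck (-4.54, adjusted p = 0.0563), had opposite signs and were not called. Of 10 NK cell genes 1 was tested, Klre1, and their sum was 2.92 to 8.16 and 2.81 to 35.4 CPM. Their defining gene Ncr1 was 0 to 1.29 CPM, at or near the floor.

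In the other direction, the sum of 10 neutrophil genes was 69.6 to 291 CPM in CD11c- and 6.59 to 28.8 CPM in CD11c+ libraries, of which Mmp9 gave 34.2 to 276 and 0.122 to 10.5 CPM. S100a9 was at most 0.215 CPM. The other tested genes of that list had negative values and were not called: Csf3r (-5.43, adjusted p = 0.0703), S100a8 (-2.94, adjusted p = 0.597) and Retnlg (-0.05, adjusted p = 0.978). The sum of 7 platelet genes was 33.9 to 209 and 9.27 to 30.9 CPM, with 0 of 1 tested genes called. Stromal progenitor genes summed to 270 to 1772 and 295 to 476 CPM, with 0 of 8 tested genes called, and their level in CD11c- CD replicate 7, 1772 CPM, was the highest. Of 14 tested classical monocyte genes 1 was higher (the clotting factor gene F10, 4.21, adjusted p = 0.0393) and 1 lower (Mgst1, -1.66, adjusted p = 0.00973), and 0 of 11 tested non-classical monocyte genes were called. The peritoneal macrophage sum, 468 to 609 and 1003 to 1206 CPM, rested on Fn1.

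**Figure D4:**
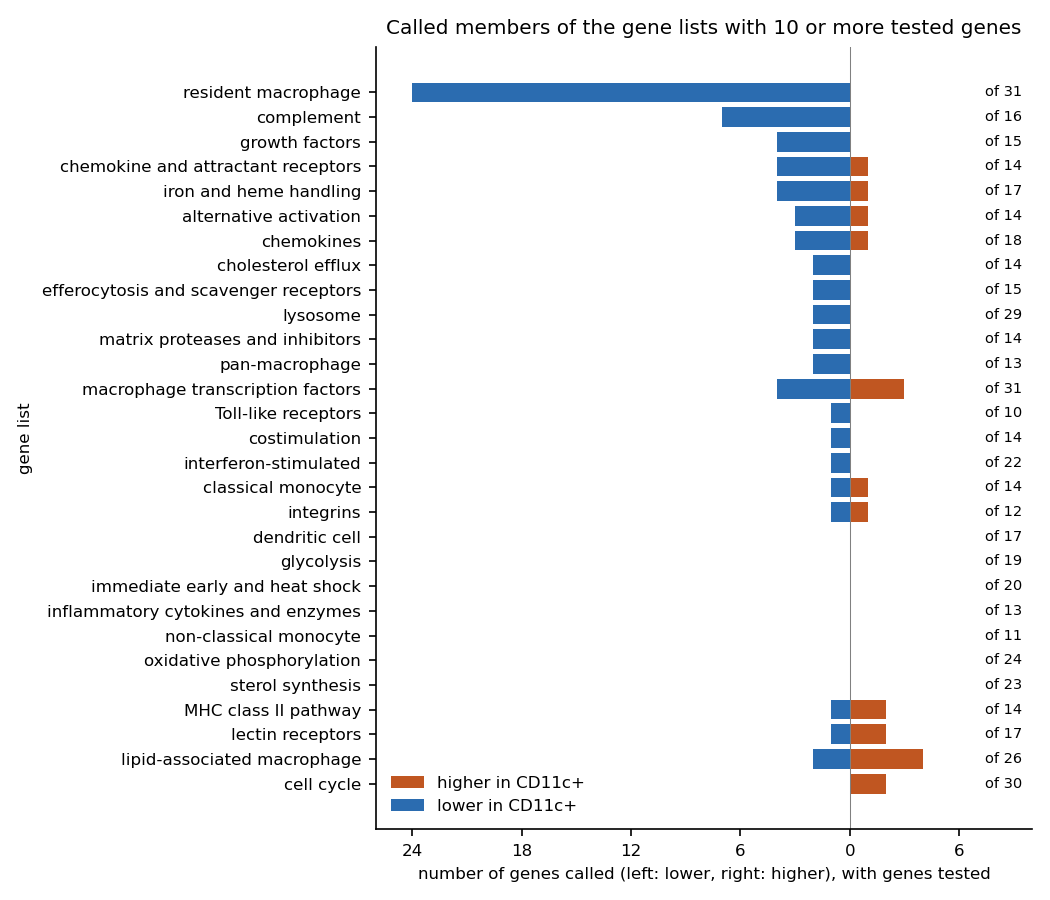
Number of genes called lower (blue, left) and higher (orange, right) in CD11c+ cells for each gene list with 10 or more tested genes, with the number tested at the right. The resident macrophage list has 24 of 31 called lower, complement 7 of 16, and dendritic cell, glycolysis, oxidative phosphorylation and sterol synthesis genes none. Over all tested genes 3.01% were called.

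The sterol synthesis and oxidative phosphorylation lists had summed levels that separated the populations without called members. Such sums were not particular to these lists. The complement, iron and heme handling, growth factor and olfactory and vomeronasal receptor sums did not overlap either, with lower levels in CD11c+ libraries. Sterol synthesis genes summed to 870 to 1078 CPM in CD11c- and 1467 to 1763 CPM in CD11c+ libraries, and 22 of 23 tested genes had values above 0 (list median 0.97), but 0 passed the edgeR test. Mvk, mevalonate kinase, was 0.193 to 1.87 and 4.9 to 17.4 CPM (3.42, SE 0.96, adjusted p = 0.101). Oxidative phosphorylation genes summed to 3686 to 4457 and 4526 to 4901 CPM (list median 0.27, 0 of 24 called), and 0 of 19 glycolysis genes were called (list median 0.60). With 3.01% of all tested genes called, 0 calls in lists of this size do not show the absence of a difference. Of 30 cell cycle genes 29 had values above 0 (list median 0.65) and 2 were called higher: cyclin B2, Ccnb2, 39.3 ± 4.46 against 142 ± 30.6 CPM (1.86, SE 0.30, adjusted p = 0.0158), and the spindle checkpoint gene Bub1, 0.935 to 4.69 against 20.4 to 84.5 CPM (4.45, adjusted p = 0.0251). The proliferation marker Mki67 was 33.9 to 156 and 55.5 to 165 CPM (0.10, SE 0.52, adjusted p = 0.945).

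Inflammatory cytokine and enzyme genes gave 0 calls in 13 tested, and the interferon-stimulated list 1 of 22 (4.545%). Over all tested genes 3.01% were called, so these counts do not set the lists apart. The interferon-stimulated gene was Oas2, 127 to 206 against 0.732 to 20.3 CPM (-5.49, adjusted p = 0.0404). Among pattern and antibody receptors, the flagellin receptor gene Tlr5 was 31.4 to 88.2 against 0.488 to 3.43 CPM (-5.42, SE 0.80, adjusted p = 0.0109) and the neonatal Fc receptor gene Fcgrt 370 ± 61.6 against 74 ± 15.9 CPM (-2.33, SE 0.22, adjusted p = 0.0018). Fcrls, an Fc receptor-like gene, was higher (0.81, SE 0.18, adjusted p = 0.0482).

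Within the diets the same contrast was tested with 2 libraries against 2. Within CD 123 genes passed (1.04%), 58 higher and 65 lower in CD11c+ cells, and within HFD 36 passed (0.306%), 3 higher and 33 lower. Of the 132 and 223 genes called over both diets, 30 and 63 were also called within CD, and 3 and 32 within HFD. The median log2 difference of the higher genes was 3.64 within CD and 2.72 within HFD, and that of the lower genes -2.28 and -2.09. A change of this contrast with diet was tested as an interaction over the 8 libraries, and 0 genes passed the edgeR test (693 at an unadjusted p under 0.05), against 146 with DESeq2. The smaller number of calls within HFD therefore does not show a smaller difference there. Without CD11c+ CD replicate 7 the calls within CD were 14, and without CD11c+ HFD replicate 2 those within HFD were 2. Diet within a population was counted as both HFD libraries lying under, or above, both CD libraries. In CD11c- cells, 111 of the 223 lower genes lay under (49.8%) and 13 above (5.83%), and 24 of the 132 higher genes lay under (18.2%) and 44 above (33.3%), against 20.8% under and 19.3% above over all tested genes. In CD11c+ cells, 74 lower genes lay under (33.2%) and 14 above (6.28%), and 27 higher genes lay under (20.5%) and 18 above (13.6%), against 18.2% and 17.3% over all tested genes. These are counts, with no test, and diet cannot be told apart from the series of titles.

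The genes with the smallest p-values of that interaction are given as values. Cd226, an adhesion receptor of lymphocytes, was 15.7 and 13.5 CPM in CD11c- CD, 167 and 183 in CD11c- HFD, 222 and 406 in CD11c+ CD and 391 and 339 CPM in CD11c+ HFD libraries (HFD minus CD difference of the log2 values -3.37, SE 0.47, adjusted p = 0.545). Kcnn4, a calcium-gated potassium channel gene, was 0.773 and 1.29, 42.7 and 66.6, 115 and 103, and 130 and 91.2 CPM in the same order (-5.69, SE 0.80, adjusted p = 0.545). Snrnp25, a spliceosome subunit gene, was 0.773 and 1.29, 96.6 and 95.5, 110 and 45.4, and 95.6 and 69.6 CPM (-6.44, SE 0.93, adjusted p = 0.545). In all 3, the CD11c- CD libraries were low and the other 6 were high. Lyve1, Cd209f, Gas6, Folr2 and Stab1 had another order, with the CD11c+ HFD libraries below the CD11c+ CD libraries, and their interaction values of -6.23, -4.75, -3.89, -1.60 and -2.31 did not pass either (adjusted p = 0.765, 0.712, 0.667, 0.765 and 0.823).

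The other 17 libraries of the study did not enter the choice of these genes and give levels to set beside both populations. With all 25 libraries scaled together, the mean of a called gene was counted as nearer to the higher or the lower of the 2 populations by their geometric mean. Of the 223 genes lower in CD11c+ cells, 217 stood nearer to the CD11c- level in Tim4+ MHCII low macrophages (97.3%) and 219 in Tim4+ MHCII high macrophages (98.2%), against 54 in blood monocytes (24.2%). Over all tested genes with a negative value the shares were 60.1%, 60.5% and 40.4%. Of the 132 genes higher in CD11c+ cells, 23 and 11 stood nearer to the CD11c+ level in the Tim4+ populations (17.4% and 8.33%) and 80 in blood monocytes (60.6%), against 33.2%, 31.1% and 58% of all tested genes with a positive value. These shares are descriptions, with no test. The cut rests on the same 2 population levels by which the called genes were chosen. The shares over all tested genes include genes with small differences, so they are not a like-for-like reference for the called genes.

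Single genes showed where the order broke. Lyve1 averaged 814.8 and 705.5 CPM in Tim4+ MHCII low and high cells and 0.509 CPM in monocytes, and Igf1 1221, 1600 and 4.56 CPM. F13a1, though lower in CD11c+ cells, averaged 1194 CPM in monocytes, and Hpgd, a prostaglandin-degrading enzyme, 592.6 CPM. On the CD11c+ side, A530064D06Rik averaged 149.6 CPM in monocytes and 146.1 CPM in CD11c+ cells, Ltb4r1 124.5 and 158.6 CPM, and Klrk1 137.5 and 237.7 CPM. Klrb1a and Klrb1b averaged 0.0518 and 0.182 CPM in monocytes and under 1 CPM in both Tim4+ populations, against 118.8 and 60.6 CPM in CD11c+ cells. Mmp12 averaged 5.55 CPM in monocytes and 898.7 CPM in CD11c+ cells. Ccl17 averaged 49.6 CPM in Tim4+ MHCII high cells, with a range of 0 to 198 CPM over their 4 libraries.

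**Figure D5:**
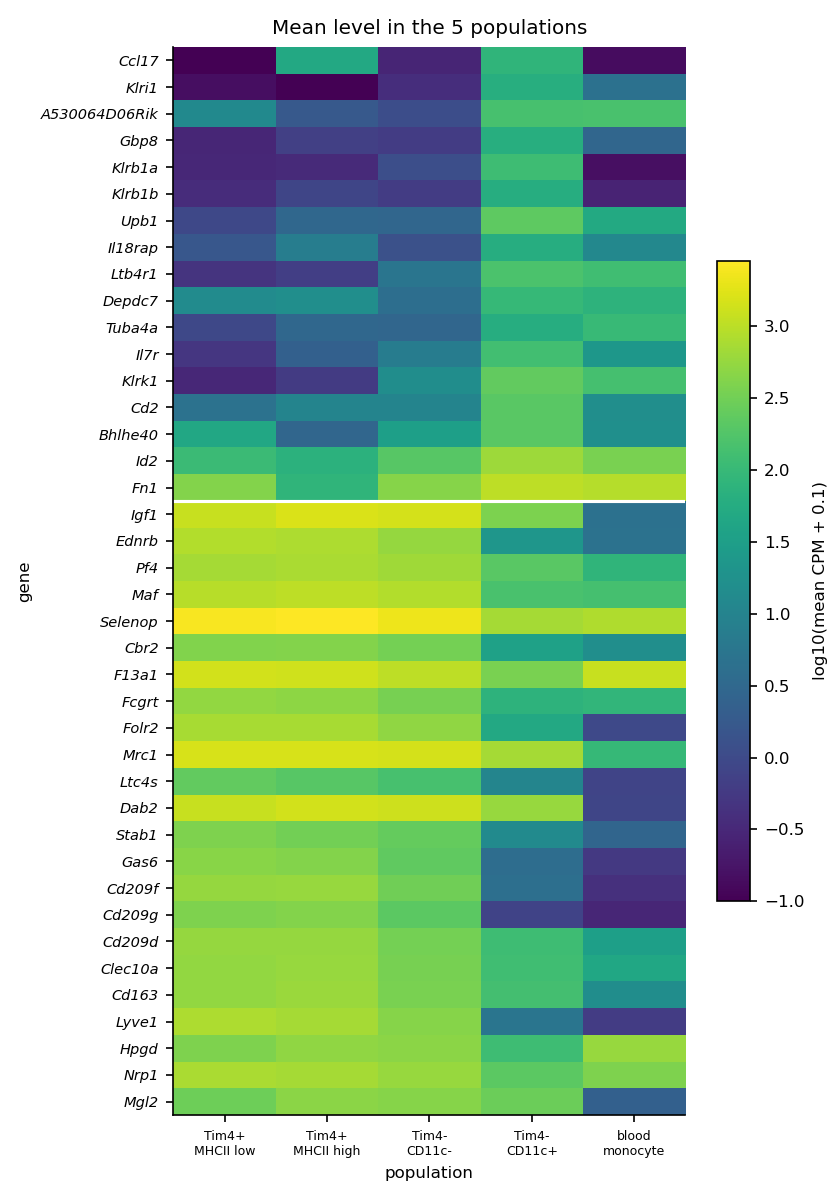
Mean level, as log10(mean CPM + 0.1), in the 4 adipose populations (4 libraries each) and blood monocytes (9 libraries), for 17 genes higher in CD11c+ cells (above the white line) and 23 of the 24 resident macrophage genes lower in CD11c+ cells (below). The resident genes are bright in both Tim4+ populations and in CD11c- cells and range from dark to bright in monocytes. There F13a1, Selenop, Hpgd and Nrp1 are bright, and genes such as Maf (136.5 CPM), Mrc1 (97.67 CPM) and Pf4 (80.48 CPM) lie between.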

How the data were processed

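Per the labels' protocols, cells were sorted from digested adipose tissue and cDNA was amplified from 200 cells per library. The deposited table holds raw counts per gene model, which the authors made on mm10 with STAR 2.5.3a and HOMER, per the submitters' processing notes. The deposited gene length and copy number of each model are other values and entered no test. Treatment of strand, duplicates and reads with several matches is not given in the sources used here, and 394 of 24537 models have more than 1 copy, so closely related genes are uncertain.

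The 8 libraries were fitted in edgeR 4.0.16 (quasi-likelihood test, TMM scaling, filterByExpr, diet as covariate, 11775 genes, Benjamini-Hochberg adjustment at 0.05). Diets were fitted with 4 group means. CPM were computed from TMM-scaled library sizes. Values after ± are the SD over 4 libraries, and log2 differences are CD11c+ minus CD11c- with their SE. With 2 libraries per group within a diet, precision rests on spread shared across genes. The biological coefficient of variation was 0.716. The procedure was tested on simulated data. DESeq2 1.42.0 and other settings were alternatives.

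Genes named are those of the gate and its markers, the 12 called genes with the largest difference in each direction (no overlap, mean of at least 50 CPM), called list members, the 4 list members with the smallest p, and 3 genes for the difference between diets. The members and lists were chosen with earlier results of these data known. Adgre1, Cd68, Cd209a, Cd209b, Klf4, Slc40a1, Fcna, Itgam, Pdgfc, Ccr2, Klrd1, Trem2, Cd36, Spp1, Cd86, Zbtb46, Flt3, Clec9a, Cd3e, Ncr1, S100a9 and Mki67 were chosen after their values were seen. Some items that the rules name are not reported here.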

Additional observations from a re-analysis of the deposited data

Results flagged for a closer look

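In 14 of 143 groups of 4 libraries, 1 library stood far from the other 3 by Dixon's test, which chance alone gives in about 1 in 20 groups. Timd4 was 13.5 CPM in CD11c- CD replicate 8, against 0.127 to 0.585 CPM in the other 3, and 10.5 CPM in CD11c+ CD replicate 8, against 0 to 0.134 CPM. Mmp12 was 188 CPM in CD11c- HFD replicate 3, against 1.16 to 11.3 CPM, and Il7r was 24.6 CPM in the same library, against 1.07 to 3.68 CPM. Tuba4a was 9.47 CPM in CD11c- CD replicate 7, against 0.507 to 1.5 CPM. Cd209g was 2.67 CPM in CD11c+ CD replicate 7, against 0 to 0.118 CPM, and Bmp2 was 1.59 CPM in CD11c+ CD replicate 8, against 0 to 0.122 CPM.

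Summed lists stood apart most often in CD11c+ CD replicate 8. There the attractant receptor genes summed to 3986 CPM (2818 to 2990 in the other 3), complement genes to 3639 CPM (2499 to 2608), efferocytosis and scavenger receptor genes to 3710 CPM (2281 to 2458) and lectin receptor genes to 4914 CPM (3238 to 3282). Integrin genes summed to 1859 CPM in CD11c+ CD replicate 7, below 2089 to 2099 CPM. Eosinophil and mast cell genes summed to 106 CPM in CD11c- CD replicate 8 (4.45 to 5.96), and mesothelial genes to 46 CPM in CD11c- HFD replicate 2 (4.44 to 8.16). What these libraries have in common was not tested.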

How the results depend on the processing

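Direction was kept by all 355 called genes under every setting run except the receptor covariate, where 353 kept it. Counts of calls moved more. Against 132 higher and 223 lower genes, DESeq2 called 603 and 837, a fit of all 25 libraries 394 and 720, a fit of the 16 adipose libraries 182 and 616, and a fit without the filter on low counts 199 and 163. With the receptor background as covariate 0 and 0 passed, and leaving out 1 library gave 34 to 93 and 92 to 161. The fits of 25 and of 16 libraries shifted the median over all genes by -0.171 and -0.135. The replicate block gave 65 higher and 169 lower. The numbers were not used as pairs because the labels do not say whether they mark a shared animal. Same-numbered libraries deviated together at correlations of 0.0276 (CD) and -0.000922 (HFD). These cannot settle whether an animal was shared, since deviations between libraries may be technical. Within CD, 123 calls became 1130 with DESeq2, 297 with all 25 libraries and 14 to 101 with 1 library left out. Within HFD, 36 became 667, 146 and 2 to 43, and 64 without the filter. For the difference between diets, 0 calls became 146 with DESeq2, 3 with all 25 libraries and 0 to 1 with 1 library left out. The calls within CD moved by over 1.5 times without any library other than both CD11c- HFD libraries, and those within HFD without any other than both CD11c+ CD libraries. Of 87 called genes in the text, 50 to 65 stayed called with 1 library left out, 71 without the filter, 71 with the block and 87 with DESeq2. Beyond the settings' own construction, the cause was not tested. Depth of 5.07 to 8.52 M counts puts genes under 0.351 to 0.644 CPM at the floor of 3 counts, and intervals from counts cover counting error only.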
